A study of Sedum plumbizincicola and Sedum alfredii with 13 samples.

Results

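The 102 transcript clusters described here were those whose read count was at least 3-fold lower with cadmium (Cd) in shoots of Sedum alfredii. They were chosen by the ratio of the untreated to the Cd-treated shoot library, each as normalised reads plus an added constant of 5. Members also needed at least 50 normalised reads in the untreated shoot library and at least 10 reads summed over 8 libraries of Sedum plumbizincicola. A normalised read count is the deposited expected count divided by a median-of-ratios size factor of its library. The members were 102 of 66584 clusters in the series, and 8615 clusters met both minima and so could have been chosen. Another 8 clusters met the ratio and level but had 3 reads or fewer in all S. plumbizincicola libraries together.

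Cadmium is a toxic metal with no known use in land plants. It binds thiol groups, displaces essential metals and causes oxidative stress, and exposed plants change transcript levels in roots, which meet the metal first, and in shoots, where it harms photosynthesis and growth. Hyperaccumulators move the metal to the shoot and store it there, largely in leaf cell vacuoles, while related non-accumulating plants hold more of it in the root.

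RNA came from roots and shoots of S. plumbizincicola, a Cd and zinc hyperaccumulator, and of a non-hyperaccumulating ecotype of S. alfredii. Plants of both species received 0 or 10 µM CdCl2 for 3 days. Each organ and dose had 2 libraries of S. plumbizincicola, called A and B, and 1 of S. alfredii, which made 12 libraries of 1260160 to 4670429 reads. The series text calls the S. plumbizincicola libraries biological replicates, but no label says how many plants a library holds, so p-values measure only the spread between these libraries. A count of 0 allows up to 3 reads, which is 1.46 to 4.72 normalised reads depending on the library. The clusters carry component numbers such as c37058_g1 and no gene names or sequences in the files used here, so no role is given to any member, the labelled organs were not checked against marker genes, and at most 2 higher and 2 lower IDs are named per comparison.

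The fall that chose the members in S. alfredii shoots is given as a description. With 1 library per dose it has no replicate check. The members made up 1.18% of the 8615 clusters that met both minima. The ratio lay between 3 and 4 in 65 members, between 4 and 6 in 26 and at 6 or more in 11. Their median log2 ratio of Cd-treated to untreated was −1.87, beside −0.09 over the clusters that met both minima. Just inside the ratio limit, a member went from 364 to 118 normalised reads (ratio 3.01), and just outside it a cluster went from 129 to 39.8 (2.99). The member nearest the level limit had 51.9 normalised reads without Cd, and a cluster with 48.7 fell below it. With Cd, 58 of the 102 members still had 50 or more normalised reads in the S. alfredii shoot, and no member was at 0 reads.

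The largest ratio, 15.9, was that of c37058_g1, with 128 reads in the untreated and 2 in the Cd-treated S. alfredii shoot library. In normalised reads it went from 104 to 1.85, the latter below what 3 reads amount to. The exact Poisson interval of the ratio without the added constant, 56.1, ran from 15.2 to 469. In S. alfredii roots this member was also lower with Cd, from 75.9 to 21.8 normalised reads, a ratio of 3.01 with the added constant. It did not show such a fall in the other species: S. plumbizincicola shoots held 122 and 115 normalised reads without Cd and 136 and 96.1 with it. The most abundant member in the untreated S. alfredii shoot was c43021_g1, at 36469 normalised reads, which went to 10928 with Cd (ratio 3.34). In TPM, which accounts for length, it went from 7146 to 3042, and it ranked 14 among all clusters in the untreated library. S. plumbizincicola shoots held 9280 and 9503 TPM of it without Cd and 9469 and 8646 with Cd, all above the untreated S. alfredii shoot. In normalised reads the order was the opposite, at 28363 and 28497 without Cd and 28772 and 24512 with it, all below the untreated S. alfredii shoot, so the order of the species depends on the scale.

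**Figure D1:**
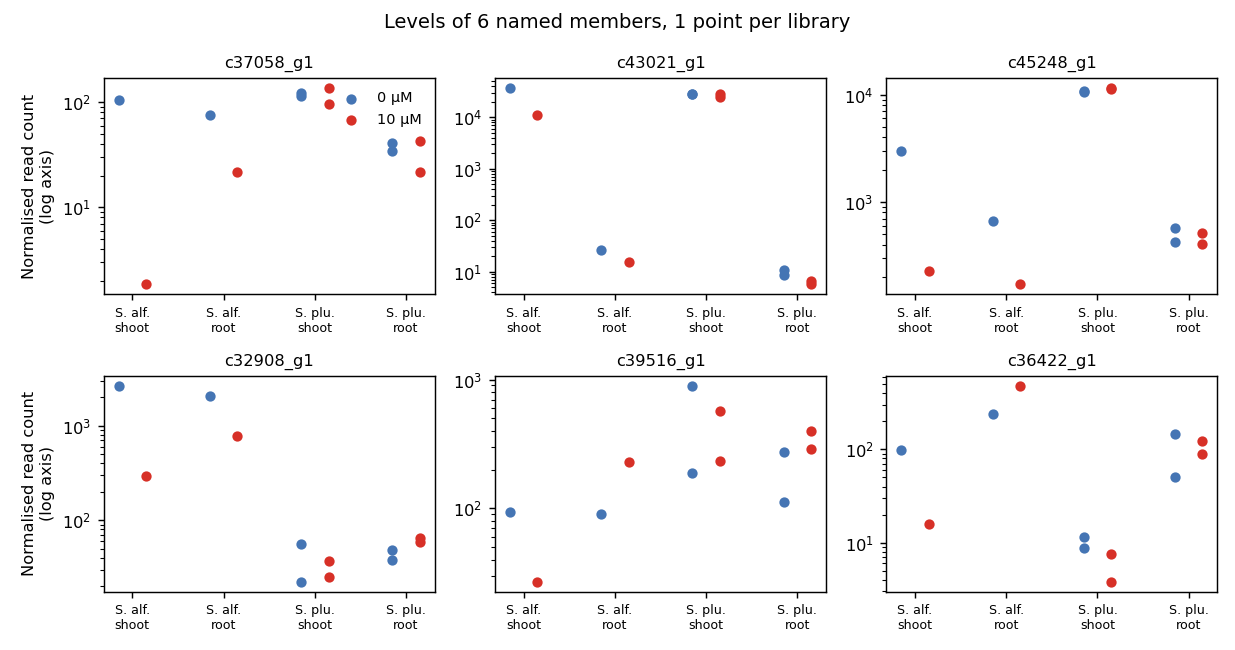
Normalised read count (log axis) of 6 named members in every library, with 1 point per library, blue for 0 and red for 10 µM CdCl2; S. alf. is S. alfredii and S. plu. is S. plumbizincicola. The S. alfredii shoot points chose the members, and all 6 fall there, while in S. plumbizincicola the red and blue points lie close together for c37058_g1, c43021_g1 and c45248_g1.

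The members were spread over the assembly. They came from 95 components, the groups of contigs that the assembly put together, and 7 components held 2 members each (14 members), whose reads may have been divided between near-identical copies. Their median length was 1073 bases, beside 1341 over the clusters that met both minima, with the length of each cluster taken as its median over the 12 libraries. Members had a median of 3 isoforms and the clusters that met both minima 4, and a single isoform was listed for 9.80% of members and 7.63% of those clusters. In the untreated S. alfredii shoot the median level was 72.3 TPM for members and 24.2 TPM for the clusters that met both minima. The added constant holds back the ratio of low clusters, so the rule itself favours higher levels.

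As a share of the library, the members held 3.15% of the reads in the untreated S. alfredii shoot and 0.932% in the Cd-treated one, a difference the rule sets. In S. alfredii roots, which the rule did not use, the share was 2.72% (95% Clopper-Pearson interval 2.71 to 2.74, counting error only) without Cd and 1.63% (1.61 to 1.64) with Cd. The 4 S. plumbizincicola shoot libraries gave 3.48% and 3.12% without Cd and 3.34% and 3.08% with Cd. There the doses overlapped, and all 4 values were close to the untreated S. alfredii shoot. S. plumbizincicola roots gave 0.723% to 0.784% in their 4 libraries, below both S. alfredii roots. Part of the S. alfredii root share was 1 cluster, c41037_g1, with 40077 reads without and 23110 with Cd. At 11885 TPM it ranked 1 among all clusters in untreated S. alfredii roots, and it stood at 1904 and 2228 TPM in untreated S. plumbizincicola roots. Without it, which was chosen after its values were seen, the members held 1.56% of reads in the untreated and 1.04% in the Cd-treated S. alfredii roots.

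**Figure D2:**
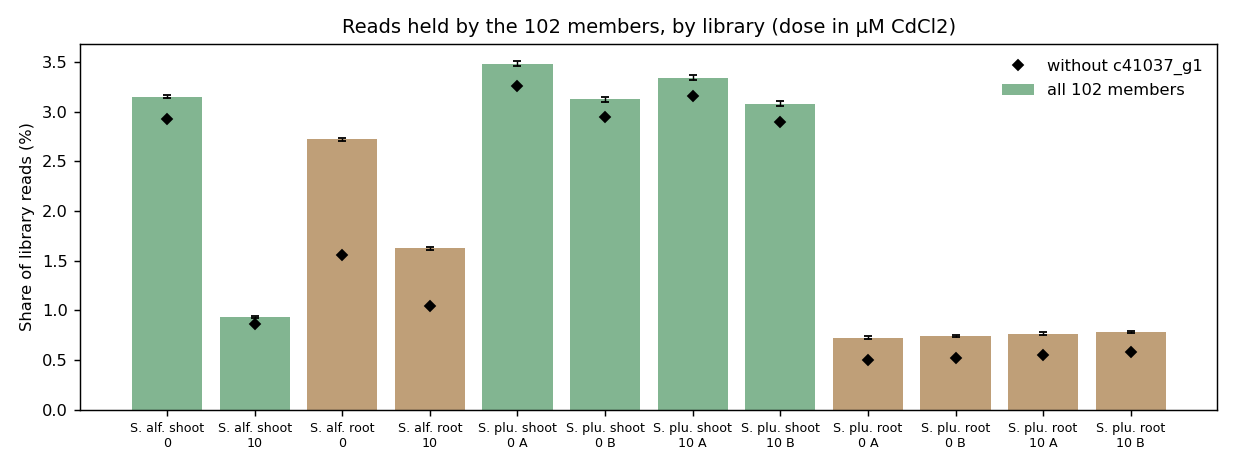
Share of each library's reads held by the 102 members (bars, %, with 95% Clopper-Pearson intervals that cover counting error) and by the members other than c41037_g1 (diamonds), for shoots in green and roots in brown. S. alfredii shoots differ by the rule that chose the members; S. plumbizincicola shoots lie between 3.08% and 3.48% at both doses and S. plumbizincicola roots between 0.723% and 0.784%.

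In S. alfredii roots, more members were lower than higher with Cd. Of the 74 members with a mean of at least 10 normalised reads over both root libraries, 15 (20.3%) were at least 2-fold lower with Cd and 2 at least 2-fold higher, again on reads plus 5. Over all 18166 clusters that met this minimum the shares were 1.83% lower and 1.55% higher. Among the clusters that met both minima of the rule and could be measured in roots, 0.866% were lower and 0.396% higher. The median log2 ratio of the members was −0.26, with 49 below and 25 above 0, beside 0.03 over all clusters measured. These 2 libraries have no replicates, so no test was made and the counts describe this pair of libraries.

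Both members named as lowest in S. alfredii roots with Cd belonged to the class with a shoot ratio of 6 or more. c45248_g1 had 663 normalised reads without and 172 with Cd in roots, 3.86-fold lower (exact Poisson interval 3.42 to 4.36), and 3017 and 227 in shoots. S. plumbizincicola shoots held 10775 and 10658 normalised reads of it without Cd and 11462 and 11247 with it, above every S. alfredii library. c32908_g1 had 2051 normalised reads in untreated and 772 in Cd-treated S. alfredii roots, a ratio of 2.66 (2.50 to 2.82). Its level in S. plumbizincicola was low in every library, between 22.3 and 65.4 normalised reads. The opposite direction in roots was seen in c39516_g1, at 90.6 without and 228 with Cd, 2.52-fold higher (2.10 to 3.03). c36422_g1 went from 242 to 479 normalised reads in roots, a ratio of 1.98 (1.76 to 2.22), just under 2-fold. The other member at least 2-fold higher in roots went from 7.93 to 53.9 normalised reads, on 14 and 111 reads.

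The root values were then split by the class of the shoot ratio, as a description. The classes use the ratio that chose the members, and each organ had 1 library per dose. Members are not replicates of a dose, so the split was not tested. No label says whether roots and shoots at a dose came from the same plants. Of the 10 measured members with a shoot ratio of 6 or more, 8 were at least 2-fold lower in roots, against 3 of 18 with a ratio of 4 to 6 and 4 of 46 with a ratio of 3 to 4. The median root log2 ratio was −1.21, −0.15 and −0.12 in the same order. The class of 6 or more held both members of a single component, with root log2 ratios of −1.30 and −1.18. Their reads may have been divided between near-identical copies. The members lower in roots were found at every root level: 4 of 22 with a mean of 10 to 50 normalised reads, 3 of 29 with 50 to 200 and 8 of 23 with 200 or more. Of the clusters that met both minima, 0.770%, 0.527% and 1.81% were at least 2-fold lower at these levels, in the same order.

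**Figure D3:**
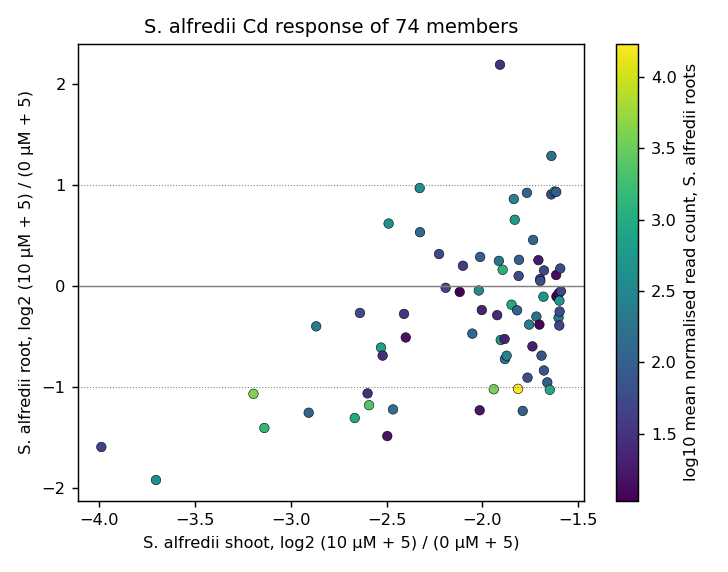
log2 ratio of Cd-treated to untreated normalised reads (each plus 5) in S. alfredii roots against the same in shoots, for the 74 members measured in roots, with 1 point per member coloured by mean root level (log10). The shoot axis chose the members. Points at the left, with the deepest shoot fall, lie mostly near or below −1 in roots, and points at the right lie on both sides of 0.

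In S. plumbizincicola shoots, the same organ in the other species, no member passed the test for Cd. Of the 97 members tested with edgeR's quasi-likelihood test, 0 had a Benjamini-Hochberg adjusted p at or under 0.05, and over all 19935 clusters tested the share was 0.00%. At an unadjusted p under 0.05 there were 3 members, and DESeq2 also called 0, with 2 at an unadjusted p under 0.05. The members' median log2 fold change was −0.12, with 62 below and 35 above 0, beside −0.0085 over all clusters tested and −0.04 over the tested clusters that met both minima. This median rested on single libraries: it was 0.06 without untreated shoot library A and −0.24 without Cd-treated shoot library A. In 87 of the 97 members, the estimate less 2 standard errors stayed above −1.58, the log2 of a 3-fold fall. These include c41539_g1, with 0 to 2 reads per shoot library, where the count says little about a fall.

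Compared letter by letter, library pair A gave a median log2 ratio of −0.09 over 94 measured members and pair B one of −0.05. In each pair 1 member was at least 2-fold lower and 0 were at least 3-fold lower. Both Cd-treated shoot libraries lay below both untreated ones in 7 of 97 members (7.22%) and above them in 9 (9.28%), against 13.0% and 14.8% of all clusters tested. The lowest estimate was that of c39386_g3, at 18.4 and 16.1 normalised reads without Cd and 10.2 and 6.32 with Cd, so that its doses did not overlap. Its log2 fold change was −1.08 ± 0.46 (SE; edgeR adjusted p = 1). The highest was c41539_g1, at 0 and 1.24 normalised reads without and 1.27 and 2.53 with Cd. Its log2 fold change was 1.44 ± 1.27 (SE; edgeR adjusted p = 1), on no more than 2 reads in any of these libraries.

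**Figure D4:**
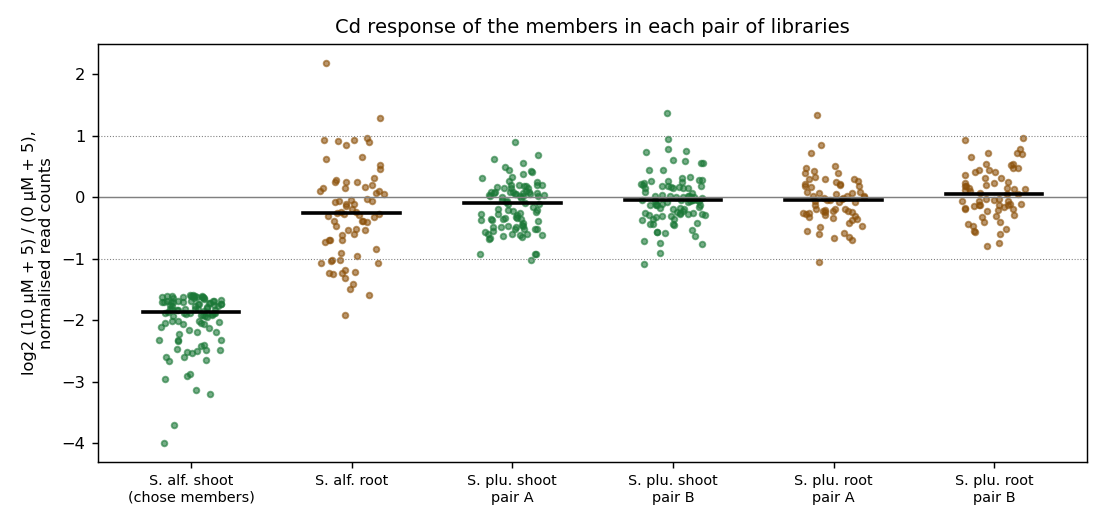
log2 ratio of Cd-treated to untreated normalised reads (each plus 5) of the members in each pair of libraries, with 1 point per member with a mean of at least 10 normalised reads in the pair, and black bars at the medians; dotted lines mark 2-fold. The S. alfredii shoot column holds the values that chose the members, the S. alfredii root column has its median at −0.26, and the medians of the S. plumbizincicola columns lie between −0.09 and 0.05.

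Between replicate shoot libraries of S. plumbizincicola, a larger share of members than of the clusters that met both minima lay far apart. Without Cd, 13 of 95 members with a mean of at least 10 normalised reads (13.7%) differed at least 2-fold between libraries A and B, against 2.61% of the clusters that met both minima. Of these 13 members, 12 were higher in A. With Cd it was 7 of 93 members (7.53%) against 1.18%, and all 7 were higher in A. The median log2 ratio of A to B over the members was 0.36 without and 0.26 with Cd, beside 0.02 and 0.04 for the clusters that met both minima. In roots the members at least 2-fold apart were 3 of 66 (4.55%) without Cd and 2 of 65 (3.08%) with it. These spreads were not tested, and the difference between A and B libraries was larger than the members' median difference between doses. One of the members with a wide spread was c39516_g1, at 893 and 188 normalised reads in untreated shoots and 566 and 231 in Cd-treated ones, where both doses overlapped.

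S. plumbizincicola roots also gave no called member. Of 97 members tested, 0 passed with edgeR (2 at an unadjusted p under 0.05) and 0 with DESeq2 (0 at an unadjusted p under 0.05), while edgeR called 2.08% of all clusters tested. Of the 8309 tested clusters that met both minima, edgeR called 7 higher and 4 lower, so 0 of 97 members is close to the rate in that set. The members' median log2 fold change was 0.00, with 44 above and 48 below 0. In 83 of 97 members the estimate less 2 standard errors stayed above −1.58. Some of these had an estimate and a standard error of exactly 0. c38984_g1 was such a member, with 0 reads in all 4 root libraries, and there the count says nothing about a fall. Both Cd-treated root libraries lay below both untreated ones in 12 members and above them in 13, which is 12.4% and 13.4%, against 18.0% and 16.3% of all clusters tested. One member, c32304_g1, was called by limma on log2(TPM + 1) and by no other setting tried; in edgeR its log2 fold change was 0.80 ± 0.28 (SE), with an adjusted p of 0.319. It had 39.3 and 29.3 normalised reads without Cd and 53.1 and 62.1 with it, without overlap. The lowest and highest root estimates, of c27306_g1 (−2.20 ± 1.85 SE) and c30240_g1 (2.44 ± 1.61 SE), each came from a single read in the 4 root libraries, and their edgeR adjusted p-values were 0.975 and 0.961.

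The difference between the Cd response of shoots and that of roots in S. plumbizincicola was also tested directly. edgeR called 0 of 97 members (4 at an unadjusted p under 0.05) and 0.00% of all clusters, and DESeq2 called 0 members. The lowest estimate was c43021_g3, at −2.55 ± 1.64 (SE), and the highest c27306_g1, at 2.14 ± 1.83 (SE), both with an edgeR adjusted p of 0.9999. Both stand on 0 to 1 reads per root library.

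The members were mostly shoot transcripts in S. plumbizincicola too, a species whose levels entered the rule only through the minimum of 10 reads. In untreated plants, edgeR called 78 of the 97 tested members different between organs: 64 (66.0%) were higher in shoots and 14 (14.4%) higher in roots. Over all clusters tested, 25.4% were higher in shoots and 27.2% higher in roots. The clusters that met both minima, which need a shoot level in S. alfredii as the members do, gave 35.6% and 20.8%. These 2 sets were not matched for level. In the untreated S. alfredii shoot the median was 324 normalised reads for members and 124 for those clusters. The rule favours higher shoot levels, and the part of this in the organ shares was not tested. The members' median log2 fold change of shoot over root was 1.97, and that of the clusters that met both minima was 0.19. With Cd, 61 members (62.9%) were higher in shoots and 18 (18.6%) in roots, against 23.4% and 24.7% of all clusters, and the median was 2.22. In both doses 59 members were called higher in shoots and 14 higher in roots. In bulk tissue, fewer cells of a type and less RNA per cell cannot be told apart.

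Shoot-higher members reached very low root levels. c43021_g3 had 961 and 1192 normalised reads in untreated shoots and 0 reads in both untreated root libraries, at least 690-fold higher in shoots (3 reads over the root group; edgeR adjusted p = 2.28e-10). c30240_g1 had 864 and 843 normalised reads in untreated shoots and 0 root reads, at least 550-fold higher (edgeR adjusted p = 3.11e-10). With Cd, c43021_g1 had 28772 and 24512 normalised reads in shoots and 5.74 and 6.77 in roots, a log2 fold change of 11.92 ± 0.38 (SE; edgeR adjusted p = 5.54e-11). c27306_g1 had 468 and 333 in Cd-treated shoots and 0 reads in Cd-treated roots, at least 211-fold higher (edgeR adjusted p = 2.68e-09). Over the series, 19 members had fewer than 10 reads summed over the 4 S. plumbizincicola root libraries, 12 fewer than 10 over the 2 S. alfredii root libraries, and 8 met both limits.

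Some members were root transcripts. c32942_g1 had 579 and 465 normalised reads in untreated S. plumbizincicola roots and 1.15 and 2.48 in shoots, a log2 fold change of −8.13 ± 0.38 (SE; edgeR adjusted p = 2.36e-10), and with Cd it was −7.88 ± 0.38. In S. alfredii the same cluster had 515 normalised reads in untreated roots and 153 in untreated shoots. c41539_g1 had 168 and 110 in untreated S. plumbizincicola roots and at most 1 read per untreated shoot library, a log2 fold change of −7.58 ± 0.55 (SE; edgeR adjusted p = 2.27e-08); with Cd the log2 fold change was −6.41 ± 0.47. In S. alfredii it had 469 normalised reads in untreated roots and 73.0 in untreated shoots. Both were thus higher in roots than in shoots in both species before Cd.

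In untreated S. alfredii the shoot level was above the root level in 80 of 102 members (78.4%), beside 66.9% of the clusters that met both minima. It was at least 4-fold above it in 55 members (53.9%), beside 19.4%. With Cd it was above the root level in 57 members (55.9%), beside 66.0%. These counts use the shoot libraries that chose the members and are a description. The classes from S. plumbizincicola matched the order of levels in S. alfredii in most members: the untreated shoot was above the root in 60 of the 64 members called higher in shoots and in 5 of the 14 called higher in roots. By the same classes, 8 of 40 measured shoot-higher members, 4 of 14 root-higher members and 3 of 19 members not called were at least 2-fold lower with Cd in S. alfredii roots.

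**Figure D5:**
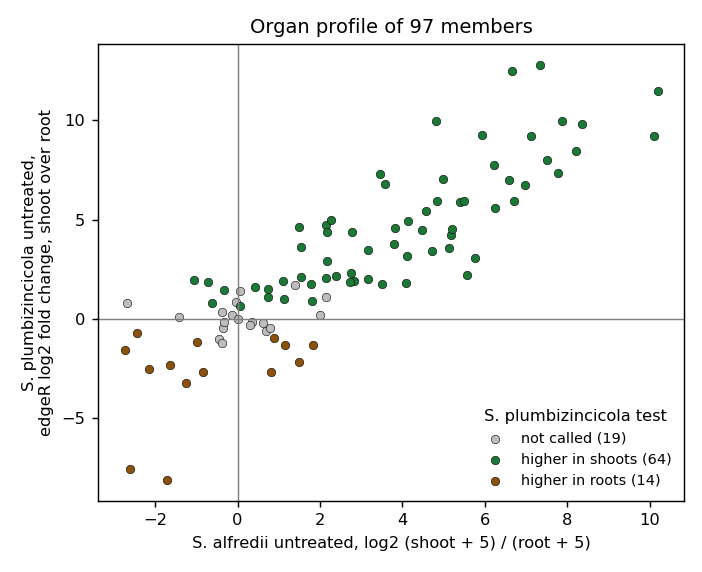
log2 fold change of shoot over root in untreated S. plumbizincicola (edgeR, vertical) against the log2 ratio of shoot to root normalised reads, each plus 5, in untreated S. alfredii (horizontal), for the 97 members tested, with 1 point per member. Green marks 64 members called higher in shoots, brown 14 called higher in roots and grey 19 not called; most green points lie to the right of 0.

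Between the species, shoot levels of the members were compared as a description, since the rule used the S. alfredii shoot. The mean untreated S. plumbizincicola shoot was above the untreated S. alfredii shoot in 25 of 102 members (24.5%), beside 30.2% of the clusters that met both minima, with median log2 ratios of −0.98 and −0.60. It was above the Cd-treated S. alfredii shoot in 71 members (69.6%), beside 33.7%, with a median log2 ratio of 0.99. Cd-treated S. plumbizincicola shoots were above Cd-treated S. alfredii shoots in 66 members (64.7%), beside 33.3%. Reads of both species were counted on a single transcript set, and the part of alignment in the species differences was not tested.

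In roots, which the rule did not use, edgeR called 53 of 78 tested members different between the species, with the doses pooled by a dose term. Of these, 38 (48.7%) were higher in S. alfredii and 15 (19.2%) higher in S. plumbizincicola. The dose effect was taken as equal in both species, because S. alfredii had 1 root library per dose. The adjusted p-values rest on this assumption, which was not tested, and S. alfredii had no replicate at either dose. Over all 21769 clusters tested, 35.1% were higher in S. alfredii and 34.6% higher in S. plumbizincicola. The clusters that met both minima, which need a shoot level in S. alfredii and reads in S. plumbizincicola, gave 41.8% and 20.05%, and the members' split lies near theirs. Without the Cd-treated S. alfredii root library, 34 members were called higher in S. alfredii and 8 higher in S. plumbizincicola, and limma on log2(TPM + 1) gave 31 and 8. The members' median log2 fold change of S. plumbizincicola over S. alfredii was −0.51, against −0.29 for the clusters that met both minima. Of the 64 members called higher in untreated S. plumbizincicola shoots, 17 were higher in S. alfredii roots, 10 higher in S. plumbizincicola roots, 17 were not called and 20 were not tested.

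The largest species difference in roots was c30452_g1, with 433 and 685 normalised reads in untreated and Cd-treated S. alfredii roots and 0 to 3.14 in the 4 S. plumbizincicola root libraries. Its log2 fold change was −8.42 ± 0.32 (SE; edgeR adjusted p = 1.11e-09). c38984_g1 had 11.3 and 10.7 normalised reads in S. alfredii roots and 0 reads in all 4 S. plumbizincicola root libraries, at least 12.9-fold lower in S. plumbizincicola (3 reads over the group; edgeR adjusted p = 0.000224). Higher in S. plumbizincicola was c35732_g1, at 119 and 107 normalised reads without and 136 and 92.5 with Cd, against 13.6 and 15.1 in S. alfredii. This gave a log2 difference of 3.03 ± 0.25 (SE; edgeR adjusted p = 2.49e-07). c41815_g2 had 316, 134, 214 and 86.9 normalised reads in S. plumbizincicola roots and 34.5 and 27.7 in S. alfredii roots. Its log2 fold change was 2.61 ± 0.55 (SE; edgeR adjusted p = 0.00572), an adjusted p that rose to 0.0900 when the untreated S. alfredii root library was left out and to 0.0689 when the Cd-treated one was; over all alternatives the adjusted p reached 0.0900 at most. In shoots this member was at 2139 normalised reads in untreated S. alfredii and 2242 and 1621 in untreated S. plumbizincicola.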

How the data were processed

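Illumina RNA-seq of 12 root and shoot libraries was analysed; a pooled 454 library was not analysed here. Per the submitters' processing notes, FastQC, Bowtie and RSEM were used, without versions; the assembly and read trimming are not given in the sources used here. Per the file headers, the authors deposited expected counts, TPM, FPKM and an isoform-weighted length per cluster. The deposited expected counts, whole in 98.7% to 99.4% of values above 0, were rounded for tests; the deposited TPM gave levels per length and an alternative test, and FPKM was not used. Reads of near-identical copies may be divided between clusters.

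Size factors were medians of ratios over 10144 clusters with at least 10 counts in every library. edgeR 4.0.16 in R 4.3.3 (TMM, filterByExpr, robust quasi-likelihood F-test, two-sided, Benjamini-Hochberg over all clusters tested, threshold 0.05) was fitted to the 8 S. plumbizincicola libraries by group (19935 clusters, 4 residual degrees of freedom) and to the 6 root libraries with species and dose terms (21769 clusters, 3 residual degrees of freedom). Replicate libraries were further apart than sampling noise allows, with 3.11 to 14.6 as the chi-square over its degrees of freedom. The tests were also run on simulated counts, with changes planted only in clusters above a minimum mean level. That run does not cover members with few reads. Alternatives were DESeq2 1.42.0, limma 3.58.1 on log2(TPM + 1), other filters and ratios, a replicate block and leaving out each library.

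Named members were the highest and lowest per comparison among those called that had separate groups and a mean log2 CPM no lower than 1 (without calls, 1 in each direction), and for S. alfredii roots those with a mean of at least 50 normalised reads. Members just beside a threshold are given by value, and c41037_g1, c32304_g1 and the other member higher in S. alfredii roots were added after their values were seen. The library pairs by letter, the spread between replicate libraries, the estimates less 2 standard errors and the share without c41037_g1 were added after seeing the data. The members and lists were chosen with earlier results of these data known.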

Additional observations from a re-analysis of the deposited data

Results flagged for a closer look

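For a few members the normalised reads of all Cd-treated libraries lay on opposite sides of the untreated ones in different organs or species. With 1 S. alfredii library per dose, none of these differences was tested, and none of the S. plumbizincicola differences passed its own test. In S. plumbizincicola shoots, c41539_g1 had a log2 fold change of 1.44 with Cd, on 0 and 1 reads without and 1 and 2 with Cd, so that untreated B and Cd-treated A differ only by size factor, while the S. alfredii shoot went from 73.0 to 20.4 normalised reads. For c30240_g1 the S. plumbizincicola shoot value was 0.26, from 864 and 843 to 1122 and 955 normalised reads, while the S. alfredii shoot went from 499.9 to 134. For c45248_g1 it was 0.0611, with both Cd-treated shoot libraries (11462 and 11247 normalised reads) above both untreated ones (10775 and 10658), and S. alfredii went from 3017 to 227. All 3 had an edgeR adjusted p of 1 in S. plumbizincicola shoots.

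Within S. alfredii, c39516_g1 was higher in roots with Cd, by a log2 ratio of 1.29, and lower in shoots, from 94.1 to 26.8 normalised reads. The log2 ratio of c36422_g1 in roots was 0.97, and its shoot level went from 99.0 to 15.7 normalised reads.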

How the results depend on the processing

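Of 94 recomputed summary values, 87 stayed within the range taken as the same and 7 moved. Many of the 87 were counts of 0 called members for Cd in S. plumbizincicola, beside a main count of 0. For Cd in shoots and for the difference between organs, edgeR called 0 of all 19935 clusters, so those counts had little room to move. For Cd in S. plumbizincicola roots, limma on log2(TPM + 1) called 1 member. A rule with a ratio of at least 2 gave 428 members and one of at least 4 gave 37, as fewer or more clusters are then chosen. Of members with a ratio of at least 4, 30 of 35 tested were called between organs without Cd and 30 of 35 with Cd. The main counts were 78 of 97 and 79 of 97. Between species in roots, 19 of 28 were called, beside 53 of 78. In S. plumbizincicola, 2 of 35 had both Cd-treated shoot libraries below both untreated ones, beside 7 of 97. Fewer members were tested at this ratio, so these counts are lower. In S. alfredii roots, 11 of 28 were at least 2-fold lower with Cd, beside 15 of 74, a count taken as the same. TMM library sizes gave 115 members and an added constant of 1 gave 118. Leaving out single libraries gave 0 to 0 called members for Cd in shoots, in roots and for their difference, 74 to 81 for organs without Cd, 75 to 80 with Cd, and 40 to 53 for species in roots. The difference between organs in the Cd response of c27306_g1 turned from 2.14 to −0.0495 without untreated root library A, which holds its only root read among the S. plumbizincicola libraries; leaving out single libraries gave −0.0495 to 3.42. Of the other named values, 224 were taken as the same and those of c41815_g2 lost their call without either S. alfredii root library. The 224 include uncalled estimates that shrank when a single library was left out. In S. plumbizincicola roots, the Cd estimate of c27306_g1 went from −2.20 to 0 without untreated library A. That of c30240_g1 went from 2.44 to 0 without Cd-treated library A. The difference between organs of c43021_g3 went from −2.55 to −0.12 without Cd-treated root library B.

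With the letters A and B as a replicate block, 0 members were called for Cd in shoots, in roots and for their difference, 84 between organs without Cd and 79 with it; the number of summary calls thus moved by less than 1.5 times. Deviations of same-lettered libraries correlated at 0.0926 to 0.338 between groups, and no label ties the letters across organs or doses.

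Depth limits what can be said of members with few reads. A count of 3 reads amounts to at most 4.72 normalised reads, in untreated S. plumbizincicola root library A. Separately, 28 of the 102 members were under the minimum of 10 normalised reads in S. alfredii roots. There, 3 reads amount to only 1.70 normalised reads without Cd and 1.46 with Cd.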
